A study of Mus musculus with 93 samples.

Results

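Sox2, Pax6, Six4, Sox4 and Sox11 are transcription factors of the olfactory placode and of early neurogenesis. They were followed cell by cell through the making of olfactory sensory neurons in the mouse. The genes were chosen by name, and all 5 are among the 32747 gene symbols of the deposited table. Expression had been measured by RNA sequencing of 85 single cells picked by hand from dissociated olfactory epithelium of C57BL/6 mice. By their labels, 11 cells were of the Progenitor stage, 9 of the Precursor stage, 27 Early Immature Neurons, 13 Late Immature Neurons and 25 Mature Neurons. The cells share strain, tissue and protocol, and no age, genotype or treatment is given. The labels do not name animals. Each stage was therefore treated as a single sample, without tests between stages, and an SD gives the spread over cells. A further 8 libraries were repeats of 8 of these cells, and they enter only where repeats are named.

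The olfactory placode is the patch of embryonic head ectoderm that gives rise to the olfactory epithelium, which goes on replacing its neurons throughout life. Globose basal cells divide in it and pass through a stage that expresses Neurog1 and Neurod1, proneural and neuronal differentiation factors, before they become immature and then mature sensory neurons. Sox2 and Pax6 are known as factors of multipotent placodal and neural cells. In the adult epithelium both are also known from sustentacular cells, the supporting cells, and from basal cells. Six4 is a homeodomain factor that works with Eya cofactors in placode neurogenesis. Sox4 and Sox11 form the SoxC group with Sox12 and are known for switching on genes of young neurons.

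The members lie on 4 chromosomes of the mm10 build. Sox2 is a gene of 1 exon on the plus strand of chromosome 3 (34650005 to 34652461), and Pax6 lies on the plus strand of chromosome 2 (105668900 to 105697364) with 10 annotated transcripts and 17 merged exons. Six4 has 3 exons on the minus strand of chromosome 12 (73099609 to 73114037). Sox4 and Sox11 have 1 exon each and lie on minus strands, Sox4 on chromosome 13 (28948919 to 28953713) and Sox11 on chromosome 12 (27340697 to 27342709). The deposited model of Sox11 covers 2013 bp and ends 527 bp after the coding sequence, whereas GENCODE M21 carries the gene 6433 bp further at its 3′ end. For the other 4 members, M21 adds 0 bp there. The cDNA was primed with oligo(dT), which starts at the 3′ end of a transcript, so the level of Sox11 may be understated beside those of other genes. How far was not tested.

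The stretches just before the start sites are shown for 4 members, which share a short motif there. They are the 150 bases before the RefSeq start (GRCm38.p6, the assembly that mm10 names), 5′ to 3′ on the strand of the gene, and capitals mark CCAAT or its reverse complement ATTGG.
Sox2, chr3:34649845-34649994, plus strand: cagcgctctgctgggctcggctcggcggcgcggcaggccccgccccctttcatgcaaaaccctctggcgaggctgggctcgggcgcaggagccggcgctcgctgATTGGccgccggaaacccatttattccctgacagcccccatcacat
Pax6, first start, chr2:105668746-105668895, plus strand: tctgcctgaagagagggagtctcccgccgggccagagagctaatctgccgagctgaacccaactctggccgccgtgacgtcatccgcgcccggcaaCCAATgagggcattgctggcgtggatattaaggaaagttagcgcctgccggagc
Sox4, chr13:28953700-28953849, minus strand: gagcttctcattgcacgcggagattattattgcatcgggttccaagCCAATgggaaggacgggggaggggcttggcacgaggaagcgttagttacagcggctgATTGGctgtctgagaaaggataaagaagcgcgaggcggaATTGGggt
Sox11, chr12:27342719-27342868, minus strand: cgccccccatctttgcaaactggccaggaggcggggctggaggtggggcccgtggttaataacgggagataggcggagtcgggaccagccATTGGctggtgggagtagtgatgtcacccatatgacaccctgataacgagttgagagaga

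RefSeq holds 7 promoters for the 5 members, each from 250 bases before to 50 bases after a start, since Pax6 and Six4 have a second start. CCAAT, the letters of the CCAAT box of many promoters, was found on either strand in at least 1 promoter of each of the 5 members. The second promoter of Pax6 and the first of Six4 did not hold it. Among all 32851 promoters, CCAAT was found in 37.4%, a share per promoter and not per gene. Counted from the start site, its first base lay at -46 in Sox2, at -54 in the first promoter of Pax6, at -73 in the second promoter of Six4 and at -60 in Sox11. Sox4 held 4 copies, at -171, -104, -47 and -8. The motif was chosen after the sequences were seen, and a match is a description only. TATAAA, the letters of the TATA box, and AACAAT, the core bound by Sox proteins, were found on neither strand of the 7 promoters, against 13.6% and 10.7% of all promoters.

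Libraries differed in depth, in cell number range and in RNA of other cell types. Values are FPKM, fragments per kilobase of transcript scaled to the mapped fragments of the library, and a gene is called detected where its FPKM is 1 or more. The files hold no counts, but low FPKM values of short single exon genes are multiples of 1 fragment. By these, an FPKM of 1 stood for 0.600 to 10.4 fragments per kilobase (median 6.00). The stage medians were 6.49, 7.56, 6.01, 5.53 and 4.54 from Progenitor to Mature Neuron. For Sox2, 3 fragments came to an FPKM under 1 in 80 of 85 libraries, for Sox4 in 84, for Sox11 in 76 and for Six4 in 85. Cell numbers fall into 4 ranges, of which D316 to D434 alone covered every stage (3 Progenitor and 5 Precursor cells, 19 Early and 6 Late Immature Neurons, 4 Mature Neurons). The sources used here do not say what a range stands for. The other 8 Progenitor cells and Precursor cell D179 lay in D168 to D205 and held at least 100 FPKM of S100a9, a gene of neutrophils, which was 0 in all neurons.

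The labels were checked against stage markers. Neurod1 was detected in 9 of 9 Precursor and 8 of 11 Progenitor cells. Gap43, a protein of growing axons, had a median of 360 FPKM in Early Immature Neurons, and Omp, the olfactory marker protein, had a median of 6257 FPKM in Mature Neurons. How the stages were set is not given, so their markers are not independent evidence of them.

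The 5 members were mostly seen early, and their order over the stages differed (the plot of levels by stage). A Progenitor cell held 2.64 ± 0.81 of the 5 (mean ± SD over 11 cells), a Precursor cell 2.22 ± 0.97, an Early Immature Neuron 0.93 ± 0.92, a Late Immature Neuron 0.46 ± 0.66 and a Mature Neuron 0.28 ± 0.46. At least 2 members were detected in 22 of 85 cells (25.9%, exact 95% interval 17.0 to 36.5%), 16 of them Progenitor or Precursor cells. No cell held all 5, and 35 cells held none. Intervals cover counting error only: they take the cells as independent, although no animals are named, and leave out the loss of a gene between libraries of 1 cell.

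**Figure D1:**
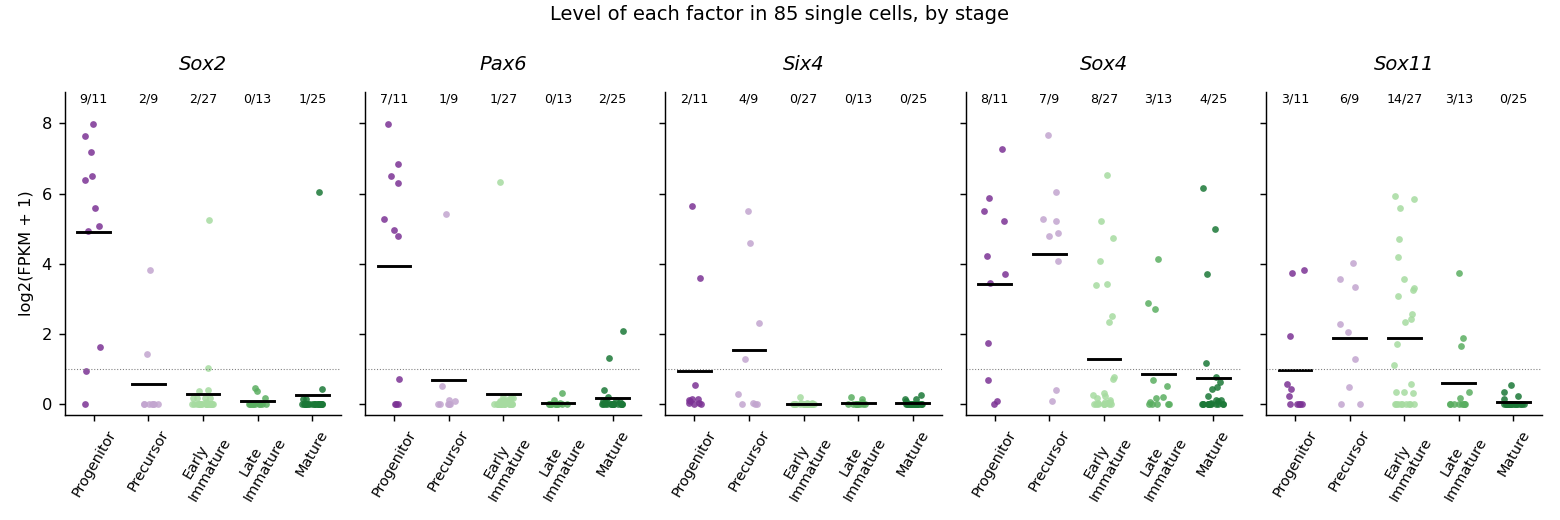
Each point is 1 cell, the vertical axis is log2(FPKM + 1), black bars are means over cells, the dotted line is an FPKM of 1 and the fractions are cells detected out of all cells of the stage. Sox2 and Pax6 sit high in Progenitor cells (9 of 11 and 7 of 11), while Sox11 is detected most often in Precursor cells (6 of 9) and Early Immature Neurons (14 of 27).

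Sox2 was a gene of the Progenitor stage. It was detected in 9 of 11 Progenitor cells (81.8%, interval 48.2 to 97.7%), where it ran from 0 in D337 to 254.7 FPKM in D189 with a median of 47.4. In Precursor cells it reached 13.1 FPKM in D195 and 1.69 in D179, and was 0 in the other 7. Of the Precursor cells, D195 alone reached the 2.11 FPKM that was lowest among the Progenitor cells with the gene. In neurons it was detected in 2 of 27 Early Immature cells (36.7 FPKM in D244 and 1.04 in D373), 0 of 13 Late Immature cells and 1 of 25 Mature cells (65.4 FPKM in D254). The interval for 0 of 13 cells runs to 24.7%.

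The mean level of Sox2, as log2(FPKM + 1), was 0.58 ± 1.30 in Precursor cells and 4.90 ± 2.79 in Progenitor cells, a difference of -4.32. Leaving out each cell in turn moved it between -4.81 and -4.01. The call used here is a difference of at least 1 log2 unit among genes detected in 50% or more of the cells of 1 of the 2 stages. By it, 20.1% of 4321 genes were higher and 21.6% lower in Precursor than in Progenitor cells. Sox2 was lower. From Progenitor to Mature Neuron cells its difference was -4.63, with 0.27 ± 1.21 in Mature Neurons, where 25.2% of 4467 genes were higher and 46.3% lower. Between the other neighbouring stages Sox2 was detected in too few cells to be compared.

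Pax6 followed Sox2 in most Progenitor cells. It was detected in 7 of 11 of them (63.6%, interval 30.8 to 89.1%), and these 7 held 26.6 to 250 FPKM with a median of 77.8. The other 4 held at most 0.63 FPKM. In Precursor cells D383 held 42.2 FPKM and the other 8 at most 0.42. Pax6 was also detected in 1 Early Immature Neuron (79.7 FPKM in D244) and in 2 Mature Neurons (1.51 in D95 and 3.21 in D251), and in 0 of 13 Late Immature Neurons. Its mean log2(FPKM + 1) was 0.68 ± 1.79 in Precursor and 3.94 ± 3.12 in Progenitor cells, a difference of -3.26 (range on leaving out each cell, -3.85 to -2.86), and the gene was called lower. The difference between Mature Neuron and Progenitor cells was -3.76, again called lower.

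All 7 Progenitor cells with Pax6 also held Sox2, at 29.5 to 254.7 FPKM. Over all cells both genes were detected together in 8, Sox2 alone in 6 and Pax6 alone in 3. Their log2 levels had a Pearson correlation of 0.76 and a Spearman correlation of 0.38 over 85 cells, in most of which both were at or near 0. The cells share the depth of their library for both genes, so these values are descriptions. D169 held Sox2 at 201 FPKM with Pax6 at 0.63, and D383 held Pax6 at 42.2 FPKM with Sox2 at 0, so the pair also came apart at high levels.

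Genes of sustentacular cells were present in most neurons that held Sox2 or Pax6, and also in neurons that held neither. D244, labelled Early Immature Neuron, held 4 members at once and all 9 sustentacular markers, with 574 FPKM of Cyp2g1 and 440 of Cyp2a5, enzymes of supporting cells, and a marker sum of 4014.5. It had 0 FPKM of Gap43 and 648 of Omp. D254, the Mature Neuron with Sox2, held 110 FPKM of Cyp2g1 and 6 of 9 sustentacular markers. D95 and D251, the Mature Neurons with Pax6, held 62.1 and 15.2 FPKM of Cyp2g1. D373, with Sox2 at 1.04, had 0. Of the 5 cells at 100 FPKM or more of Cyp2g1, the other 3 (280 in D230, 141 in D55 and 274.05 in D329) held at most 0.30 FPKM of Sox2 and 0.060 of Pax6. An alternative added with D244 and D254 known left out those 5 cells, and it takes these 2 out by its construction. Then Sox2 was detected in 1 of 26 Early Immature and 0 of 22 Mature Neurons, and Pax6 in 0 of 26 and 2 of 22.

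The sustentacular marker list summed to 0.088 to 601 FPKM in Progenitor cells (median 219, 8 of 9 markers detected in some cell) and to 0.079 to 1528 in Precursor cells (median 2.199). In Mature Neurons, where Sox2 and Pax6 were near 0, it summed to 0.51 to 2344 (median 318.7). Cyp2g1 itself was at most 5.58 FPKM in a Progenitor cell, and Krt8, a keratin, had a median of 62.9. Of 6 horizontal basal cell markers, 1 was detected in any Progenitor cell, and Krt5, Krt14 and Trp63, which define those cells, were at 0 in all 11. On the glial list, 3 of 5 markers were detected in Precursor cells (list sum 0 to 326.7, median 0.37), against 1 of 5, Fabp7, in Progenitor cells (0 to 5793, median 13.2), and S100b was 0 in all of both. On the gland and microvillous list, 1 of 5 genes was detected in Precursor cells (sum 0 to 2.35, median 0), against 3 of 5 in Progenitor cells (0 to 294, median 1.87). Of these, Ascl3 was detected in 2 of 9 Precursor and 7 of 11 Progenitor cells, and Foxi1 reached 0.50 FPKM in Precursor and 261.7 in Progenitor cells, while Muc5b was 0 in all. On the blood and immune list, 3 of 7 genes were detected in Precursor cells, with a sum of 0 to 336.6 (median 0), against 3 of 7 and a sum of 0 to 638 (median 353) in Progenitor cells. The part of these genes in the levels of the members was not tested. Ptprc, which defines white blood cells, was at most 0.024 FPKM in a Progenitor cell. The 3 Progenitor cells without S100a9 held Sox2 at 32.5 FPKM in D330, 145 in D393 and 0 in D337, and Pax6 at 26.6, 30.4 and 0. In the range D316 to D434 the mean log2 level of Sox2 was 0 in 5 Precursor cells and 4.09 in 3 Progenitor cells, and that of Pax6 was 1.13 and 3.25.

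Six4 was found in few cells, all of the first 2 stages. It was detected in 2 of 11 Progenitor cells (48.9 FPKM in D172 and 11.1 in D203) and in 4 of 9 Precursor cells (44.0 in D179, 23.0 in D242, 3.95 in D319 and 1.44 in D374). Of these, D242 held 8 of 9 sustentacular markers, with a sum of 1527.6 FPKM. D172 and D203 held 7 each, with sums of 505.8 and 601.2, and D179 held 6, with 54.5. D374 and D319 held 1 each, with sums of 110.55 and 1.84. Six4 was detected in 0 of 65 neurons, with a highest value of 0.19 FPKM. The exact 95% intervals for these counts of 0 ran to 12.8% of Early Immature, 24.7% of Late Immature and 13.7% of Mature Neurons. Its mean log2(FPKM + 1) was 1.55 ± 2.14 in Precursor and 0.94 ± 1.88 in Progenitor cells, a difference smaller than the spread over cells. In neither stage did the gene reach the 50% of cells needed for a comparison. Between Early Immature Neurons, at 0.01 ± 0.04, and Precursor cells the difference was -1.54, also without a call. Leaving out any of D178, D195, D345, D383 or D398 from the Precursor cells brought Six4 to the 50% and made it lower, at -1.70 to -1.74.

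No cell held both Pax6 and Six4 at an FPKM of 1 or more. Pax6 was detected without Six4 in 11 cells, Six4 without Pax6 in 6, and neither in 68. Within the 20 Progenitor and Precursor cells the counts were 8, 6 and 6. Each gene was detected in few cells. Whether the lack of cells with both goes beyond what these counts alone would give was not tested. At a lower level of detection, an FPKM of 0.1, there were 2 Progenitor, 1 Precursor, 1 Early Immature and 1 Late Immature cell with both. Grouping the early cells by these genes was done after their values were seen, so the following values are descriptions.

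**Figure D2:**
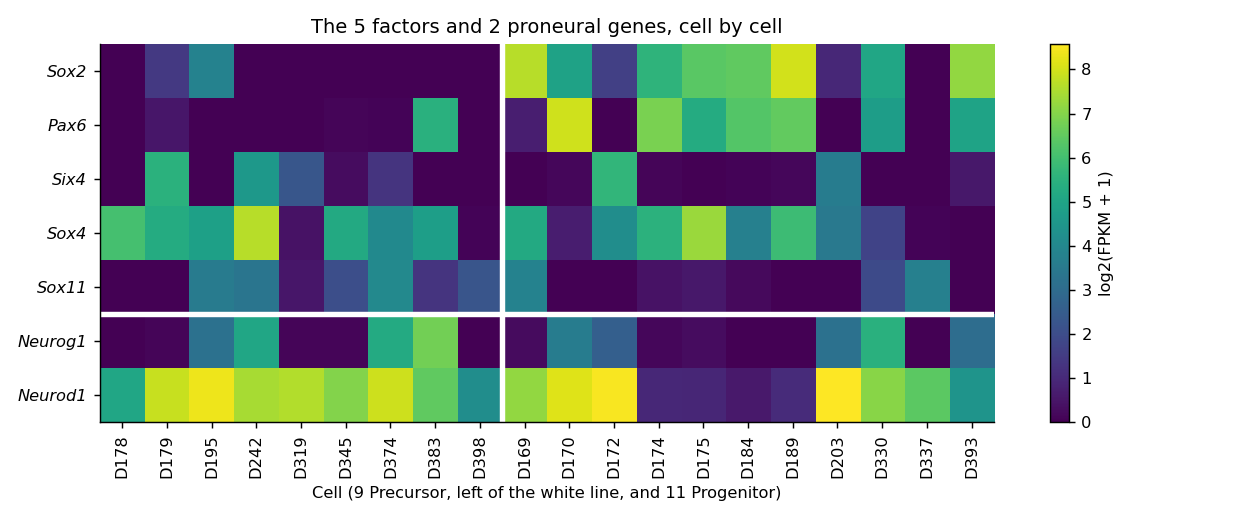
Columns are the 9 Precursor cells, left of the white line, and the 11 Progenitor cells, rows are the 5 factors above 2 proneural genes, and colour is log2(FPKM + 1). The 6 columns with Six4 at an FPKM of 1 or more are at most 0.42 FPKM for Pax6 and at least 174.2 for Neurod1.

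The 6 early cells with Six4 all held much Neurod1, at 174.2 to 381 FPKM (median 239), against 0.49 to 286 (median 10.8) in the 8 early cells with Pax6. The 6 early cells with neither gene held Neurod1 as well, at 17.6 to 327 FPKM (median 105). The sets also differed in stage. Six4 was held by 2 Progenitor and 4 Precursor cells, and Pax6 by 7 and 1. Sox2 was at most 2.11 FPKM in the cells with Six4, and had a median of 65.3 in those with Pax6, of which 7 of 8 held it. Sox4 was common to both sets, in 5 of 6 and in 6 of 8 cells, with medians of 16.8 and 19.6 FPKM. D172 and D203, the 2 Progenitor cells with Six4, held 356 and 381 FPKM of Neurod1, and their Sox2 was 2.11 and 0.93 FPKM. Both had at least 100 FPKM of S100a9 and 7 of 9 sustentacular markers, and the part of these in their values was not tested.

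Sox4 was the member detected most widely. It was found in 8 of 11 Progenitor cells (72.7%, interval 39.0 to 94.0%) and in 7 of 9 Precursor cells (77.8%, interval 40.0 to 97.2%). Its levels there were 0.060 to 201.9 FPKM (median 28.3) in Precursor cells, highest in D242, and 0 to 154 FPKM (median 12.2) in Progenitor cells, highest in D175. In neurons it was found in 8 of 27 Early Immature (29.6%), 3 of 13 Late Immature (23.1%) and 4 of 25 Mature cells (16%). Some neurons held as much as early cells, with 90.9 FPKM in the Early Immature cell D424, 16.5 in the Late Immature cell D344 and 69.8 in the Mature cell D265. D265 had 15487 FPKM of Omp and a sustentacular marker sum of 9.75, so its Sox4 stood in a cell with a high level of the mature marker.

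**Figure D3:**
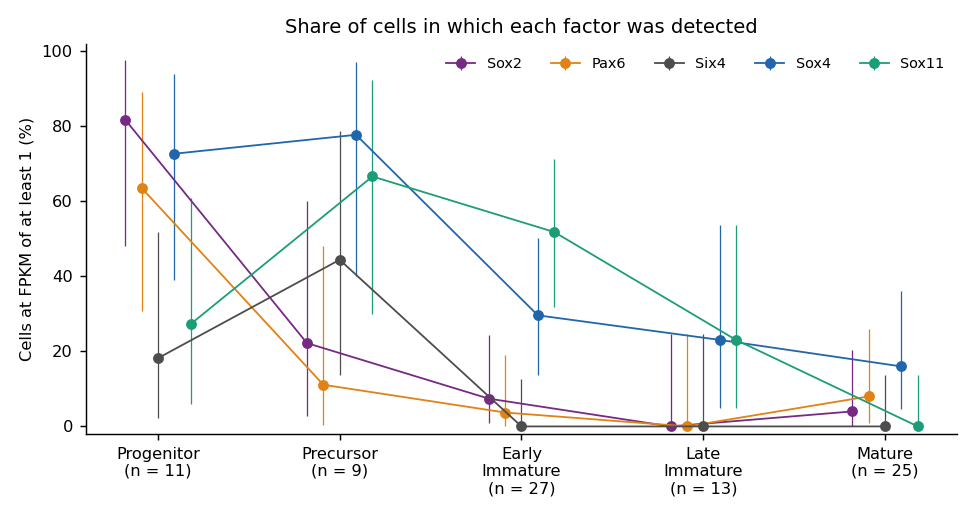
The share of cells at an FPKM of at least 1 is plotted in percent for each factor and stage, with exact 95% intervals as bars. Sox4 stays at or above 72.7% in the first 2 stages, and Sox11 passes 50% in Precursor cells and Early Immature Neurons only.

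The mean log2(FPKM + 1) of Sox4 was 4.28 ± 2.49 in Precursor and 3.44 ± 2.50 in Progenitor cells, a difference of 0.84 that was not called. It lay close to the threshold: leaving out each cell moved it between 0.42 and 1.36. It passed 1 without Precursor cell D319 (1.32) or D398 (1.36) and without Progenitor cell D169 (1.02), D174 (1.05), D175 (1.22) or D189 (1.08). It was 3.54 without cells at 100 FPKM or more of S100a9. Early Immature Neurons averaged 1.30 ± 1.96, which was 2.98 below Precursor cells (range of the difference, -3.51 to -2.56). Sox4 was the only member called between these stages with all cells, where 22% of 4006 genes were higher and 28% lower.

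The comparison of Sox4 between Mature Neurons and Progenitor cells depended on which Progenitor cells entered. With all cells the mean log2 level was 0.76 ± 1.65 in Mature Neurons and 3.44 ± 2.50 in Progenitor cells, a difference of -2.68 that was called lower. Within the range D316 to D434 the means were 1.32 in 4 Mature Neurons and 0.61 in 3 Progenitor cells, and the difference turned to 0.72. Without the cells at 100 FPKM or more of S100a9 it was 0.15. Those 3 Progenitor cells held Sox4 at 2.34 FPKM in D330, 0.06 in D337 and 0 in D393, while the 8 others held 0.63 to 154 (median 26.8). The number range and S100a9 cannot be told apart in Progenitor cells. Both settings left 3 members called lower, Sox2, Pax6 and Sox11 in place of Sox4. Each of these was detected in 2 of the 3 Progenitor cells and passed the filter there alone. Passing in that way favours a call of lower, so nothing is read from the count of 3.

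With all cells, Sox11 was detected most often in Precursor cells and Early Immature Neurons. It was detected in 3 of 11 Progenitor cells (27.3%, interval 6.02 to 60.97%), 6 of 9 Precursor cells (66.7%, interval 29.9 to 92.5%), 14 of 27 Early Immature Neurons (51.9%, interval 32.0 to 71.3%), 3 of 13 Late Immature Neurons (23.1%) and 0 of 25 Mature Neurons. The highest values were 13.0, 15.3, 59.6, 12.4 and 0.45 FPKM in the same order of stages. The interval for 0 of 25 runs to 13.7%, and 3 fragments of Sox11 came to a median of 0.27 FPKM. The 3 highest cells, D411, D187 and D371, were Early Immature Neurons with 59.6, 56.6 and 47.1 FPKM, above every Precursor and Progenitor cell.

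The mean log2(FPKM + 1) of Sox11 was 1.89 ± 1.55 in Precursor and 0.97 ± 1.497 in Progenitor cells, a difference of 0.92 that was not called. It passed 1 without Precursor cell D178 (1.16), D179 (1.16) or D319 (1.10), or without Progenitor cell D169 (1.21), D330 (1.02) or D337 (1.1997). It fell to 0.14 within D316 to D434 and to 0.24 without cells at 100 FPKM or more of S100a9. Within D316 to D434, Sox11 was detected in 2 of 3 Progenitor cells, 4 of 5 Precursor cells and 10 of 19 Early Immature Neurons. Early Immature Neurons, at 1.90 ± 2.05, differed from Precursor cells by 0.0034, far less than the spread over cells. Late Immature Neurons, at 0.60 ± 1.15, lay 1.30 below Early Immature Neurons and Sox11 was called lower (range, -1.56 to -1.14). There 32.5% of 4144 genes were higher and 16% lower, and Sox11 was the only member compared. With a pseudocount of 10 the call was lost. Mature Neurons averaged 0.05 ± 0.13, and no member could be compared with Late Immature Neurons, where 4.54% of 3835 genes were higher and 32.7% lower.

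Sox4 and Sox11 were detected together in 13 cells, Sox4 alone in 17 and Sox11 alone in 13. Of the 13 with both, 2 were Progenitor, 5 Precursor, 5 Early Immature and 1 Late Immature cells. Their log2 levels had a Pearson correlation of 0.11 over 85 cells. D411 held 59.6 FPKM of Sox11 with 0.020 of Sox4, and D424 held 90.9 FPKM of Sox4 with 0 of Sox11. In the authors' deposited pseudotime, a score whose making is not given, the 25 scored Early Immature Neurons ran from 10.1 to 35.4. Over these cells Sox11 had a Spearman correlation of -0.48 and a Pearson correlation of -0.39 with it, and Sox4 had -0.21 and -0.44, so the order of both genes depends on the measure. Over 38 Early and Late Immature Neurons Sox11 had -0.52 and -0.47, and Sox4 -0.19 and -0.37. The score may come from the same transcriptomes.

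The repeat libraries show how far a single value can be trusted. In 40 pairs of values (5 members in 8 cells), a member was detected in both libraries in 5, in the repeat alone in 1, in the first library alone in 4 and in neither in 30. Sox2 in D244 had 97.8 FPKM in the repeat and 36.7 in the first library, so its detection held there, whereas Pax6 had 0 and 79.7. Sox11 in D200 had 24.4 FPKM in the repeat and 25.1 in the first library, but in D187 it had 0.57 and 56.6, and in D230 0 and 12.4. Sox4 in D200 had 3.73 and 25.5. Pax6 in D251, at 3.21 FPKM in the first library, was 0 in the repeat. Of all genes at 10 FPKM or more in the first library, 48.3 to 79.5% (median 58.7%) were seen at 1 or more in the repeat. A 0 in 1 library was thus not always a 0 in the other, which bears on every count of cells given here, that of cells with both Pax6 and Six4 included.

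**Figure D4:**
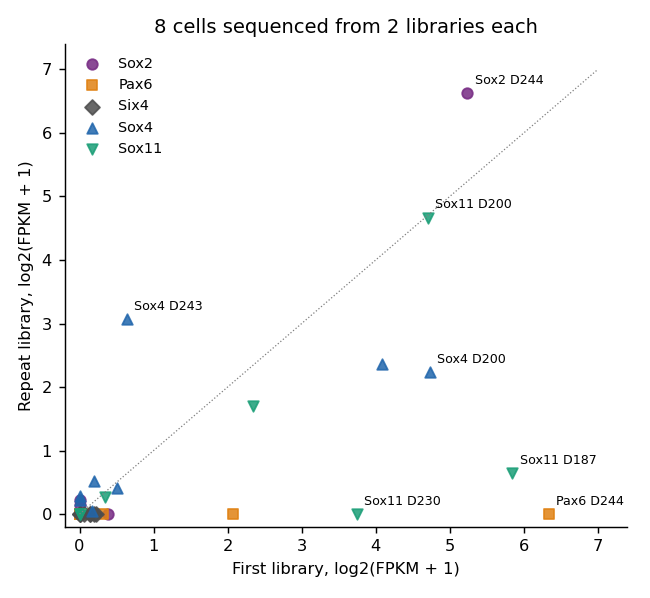
Each point is 1 factor in 1 of 8 cells, with log2(FPKM + 1) in the first library on the horizontal and in the repeat on the vertical axis, and the dotted line marks equal values. Sox11 in D200 lies on the line, while Pax6 in D244 and Sox11 in D230 are 0 in the repeat.

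Genes overlap the members in the annotation. Sox2ot, on the strand of Sox2, was detected in 1 cell (4.01 FPKM in D175), and Pax6os1, opposite to Pax6, in none. Elp4, a subunit of the Elongator complex whose span meets the end of Pax6 on the opposite strand, was detected in 34 cells. Of the words of 50 bases in Sox4, 54.1% are also in Gm26735, an opposite gene that was detected in no cell. Whether strand was used in counting is not stated, so reads from the stretch that Sox4 and Gm26735 share cannot be told apart. Sox2 and Sox11 share 0% of such words with other genes.

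The genes most like each member in their ranks over 85 cells were named by Spearman correlation among 6545 genes. Sox2 was most like Ifitm3 (0.70), Birc5 (0.57) and Slc7a1 (0.55), and Pax6 was most like Zbtb22 (0.61), Ercc1 (0.50) and Zfp688 (0.48). For Six4 these were BC030867 (0.64), Btg2 (0.60) and Crabp2 (0.59). For Sox4 they were Nnat (0.66), Haus6 (0.57) and Gdf11 (0.55), and for Sox11 Tubb2b (0.65), Nrep (0.60) and Nhlh1 (0.60). Birc5 acts in cell division, Crabp2 binds retinoic acid, Gdf11 is a secreted signal, Tubb2b is a tubulin and Nhlh1 is a neuronal transcription factor. All of these correlations rest on many cells at or near 0 and on shared depth.

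Relatives of the members were set beside them as lists. None of 16 other Sox genes and none of 8 other Pax genes was detected in enough cells to be compared in any of the 5 pairs of stages. Of the Sox genes, Sox12, the third SoxC gene, was detected in 16 cells, with 8 of them Early Immature Neurons, and Sox9 in 3 Progenitor cells. These 2 were chosen after their values were seen.

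Of 11 other Six, Eya and Dach genes, 4 were compared between Precursor and Progenitor cells, where 2 were higher and 2 lower (list median 0.16, against -0.03 for all genes, of which 20.1% were higher and 21.6% lower). Eya2, a cofactor of such homeodomain proteins, was higher, with a mean log2 level of 4.93 ± 2.91 in Precursor and 3.37 ± 3.19 in Progenitor cells. Six2 was lower, at 0.94 ± 1.44 and 2.25 ± 2.07. Eya1, chosen after its values were seen, was lower too, at 0.88 ± 1.40 and 2.02 ± 1.90. Eya2 was then lower in Early Immature Neurons, at 1.64 ± 2.75, than in Precursor cells. Between Mature Neurons and Progenitor cells all 4 compared genes of this list were lower (list median -2.37, against -0.81 for all genes, of which 46.3% were lower).

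Of 16 other placode and patterning factors, 5 were compared between Precursor and Progenitor cells. Of these, 1 was higher (Dlx3) and 2 were lower (Otx2 and Meis2), named after their values were seen. The list median was -0.80, against -0.03 for all genes, of which 20.1% were higher and 21.6% lower. Dlx6, a homeodomain factor, was seen mostly in Early Immature Neurons, in 12 of 27. Meis1 was detected in 5 of 11 Progenitor cells, 3 of 9 Precursor cells and 8 of 27 Early Immature Neurons. Its mean log2 levels there were 2.39, 1.90 and 1.55. In the pair of Mature Neuron and Progenitor cells 4 of 4 compared factors were lower (list median -3.43, against -0.81 for all genes, of which 46.3% were lower).

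The 4 genes reported as targets of Sox4 or Sox11 did not share 1 pattern. Tubb3, a neuronal tubulin, averaged 9.44 ± 1.25 in Precursor and 6.43 ± 3.36 in Progenitor cells and was higher. Dcx, a microtubule protein of migrating neurons, averaged 4.76 ± 2.65 in Early Immature Neurons and 1.51 ± 2.27 in Precursor cells and was higher there. Tead2, a transcription factor, was lower at both steps, with 4.56 ± 3.01 in Progenitor cells, 2.61 ± 2.90 in Precursor cells and 0.59 ± 1.46 in Early Immature Neurons. Map2, a protein of dendrites, averaged 0.88 ± 1.49 in Late and 2.07 ± 2.08 in Early Immature Neurons and was lower, as was Dcx, at 3.58 ± 1.93 in Late Immature Neurons. The list median there was -1.18, against 0.41 for all genes.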

How the data were processed

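Libraries of oligo(dT)-primed, PCR-amplified cDNA were sequenced, 1 per picked cell or repeat. FPKM of 32975 entries in 93 libraries were deposited. Per the submitters' processing notes, Cufflinks 2.2.1, TopHat2 2.0.14, cutadapt 1.2.1, Trim Galore, CASAVA 1.8.2 and mm10 were used, with no settings named. The authors also deposited a pseudotime score and an annotation with genomic positions.

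The members and lists were chosen with earlier results of these data known. First libraries were used, 1 per cell. Levels are log2(FPKM + 1), which understates changes of low genes. Differences of means over cells (later minus earlier stage) were taken for genes at an FPKM of at least 1 in 50% or more of the cells of 1 of the 2 stages and called at 1 log2 unit. Shares have exact Clopper-Pearson 95% intervals. Depth was recovered from 2282 single exon genes of 800 to 4000 bp; 97.6 to 100% of the low values were whole fragments (tolerance 5%). Named genes were those overlapping a member, the 3 most like each member, and up to 4 of each list with the largest Mature Neuron minus Progenitor differences among genes detected in at least 20% of cells. Not every gene so chosen is reported. The differences were tested on simulated data. Alternatives were other pseudocounts, filters, scaling, cells, libraries and detection levels. Python 3.11.15, NumPy 2.4.6, pandas 2.3.3 and SciPy 1.17.1 were used.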

Additional observations from a re-analysis of the deposited data

Results flagged for a closer look

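Among the 9 Precursor cells, Sox2 in D195 (13.1 FPKM) and Pax6 in D383 (42.2 FPKM) lay far from the other cells by Dixon's ratio of gap to range. That ratio picks out about 1 group in 20 by chance where values are normal, but 7 of the 9 values of Sox2 and 5 of the 9 of Pax6 were exactly 0, so a cell with the gene stands out almost by construction. D195 held 1 of 9 sustentacular markers and D383 held 0. Among the 8 cells with a repeat, the log2 difference between repeat and first library lay far from the others in D244, at 1.39 for Sox2 and -6.33 for Pax6. Sox4 was detected in the repeat library of the Mature Neuron D243, at 7.38 FPKM, which the comparisons between stages do not use; the first library had 0.56. The cause was not tested for any of these.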

How the results depend on the processing

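Of 225 alternative values for the differences of the members, 217 differed from the first value by less than the spread over cells, 6 moved further, and 2 turned the sign of a called difference. Both of these were Sox4 between Mature Neuron and Progenitor cells, 0.72 within D316 to D434 and 0.15 without cells at 100 FPKM or more of S100a9, against -2.68. Some of the 217 could not move by construction. Progenitor and Precursor cells had no repeat libraries and lost no cell when those at 100 FPKM or more of Cyp2g1 were left out. The S100a9 setting left out no neuron. A further 19 turned the sign of 8 differences that were not called, none over 0.42 log2 units in size with all cells (Sox11 between Early Immature Neuron and Precursor cells, for example, at 0.0034, was -0.93 with medians), so no direction is read from those. The number of members called between Precursor and Progenitor cells was 2, and 4 with a pseudocount of 0.1 or with medians over cells. It was 3, with Sox4 higher added, within D316 to D434 and without cells at 100 FPKM or more of S100a9. Between Early Immature Neuron and Precursor cells it was 1, and 2 with the filter at 25% of cells or with no filter. Between Late and Early Immature Neurons it was 1, and 0 with a pseudocount of 10. Leaving out each cell in turn gave 2 to 4 and 1 to 2 for the first 2 pairs, 1 to 1 for the third, 0 to 0 between Mature and Late Immature Neurons and 3 to 3 between Mature Neuron and Progenitor cells. With detection at an FPKM of 0.1, at least 2 members were found in 49.4% of cells in place of 25.9%, and the members per cell were 1.31 in Late Immature and 0.92 in Mature Neurons. The cause was not tested. No paired analysis was possible because each library is 1 cell and no number pairs cells across stages. Depth limits a statement of absence to the level of 3 fragments.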
